A study of Mus musculus with 9 samples.

Results

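The miRNAs described here are the main strands of the miR-23, miR-27 and miR-24 hairpins in mouse serum: miR-23a-3p (MIMAT0000532), miR-23b-3p (MIMAT0000125), miR-27a-3p (MIMAT0000537), miR-27b-3p (MIMAT0000126) and miR-24-3p (MIMAT0000219). The 5 were chosen by their miRBase identifiers, with their counts in the control, beads-depleted and RNase H-depleted libraries already known, so their levels and their changes in both comparisons are given as a description, without a p-value. Members past a threshold are counted as a description too, and such a count is no test of them. A count was at hand for 4 of the 5, out of 876 miRNAs with a count in at least 1 library. miR-24-3p is not analysed here.

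Serum came from healthy male and female 129/SVj mice of 2 to 9 months, and the labels name 3 serum pools, A, B and C. The methods describe aliquots of 200 µl from pooled serum of 3 mice, so the spread between libraries may be technical only. RNA from each pool was split into an undepleted control, a fraction depleted of 5′ tRNA fragments with biotinylated DNA probes on streptavidin beads, and a fraction depleted with probes of the same kind and RNase H, an enzyme that cuts RNA paired to DNA. This gave 9 small RNA libraries in 3 groups of 3. The labels name no engineered allele, and treatment differed between groups only after RNA isolation.

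A miRNA is cut from a hairpin in a longer transcript, and 1 strand of the hairpin is loaded into an Argonaute protein, where bases 2 to 8, the seed, pair with messenger RNAs and lower their output. The miR-23, miR-27 and miR-24 hairpins sit side by side in a pair of duplicated clusters, each transcribed as a single precursor. Both clusters are known for their activity in the endothelium of blood vessels, where miR-23 and miR-27 take part in vessel growth, and the miR-23a cluster is also known from myeloid blood cells. Serum itself contains no cells, and a share of serum miRNA cannot tell fewer releasing cells from less RNA released per cell.

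The miR-23a cluster lies on the plus strand of mouse chromosome 8 (GRCm38, chr8:84208518-84208921) and spans 404 bases. Mir23a and Mir27a overlap no other annotated gene, and the last bases of Mir24-2 reach the exon of the long non-coding RNA gene Gm26532. The miR-23b cluster lies on the plus strand of chromosome 13 (chr13:63300484-63301275) and spans 792 bases, within the protein-coding gene 2010111I01Rik (Aopep), which is on the same strand, and opposite Fancc. Mir23b overlaps introns only, while Mir27b and Mir24-1 also overlap exons of some 2010111I01Rik transcripts. Mir24-1 and Mir24-2 give the same mature miR-24-3p. miR-23 lies first, miR-27 second and miR-24 last in both.

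**Figure D1:**
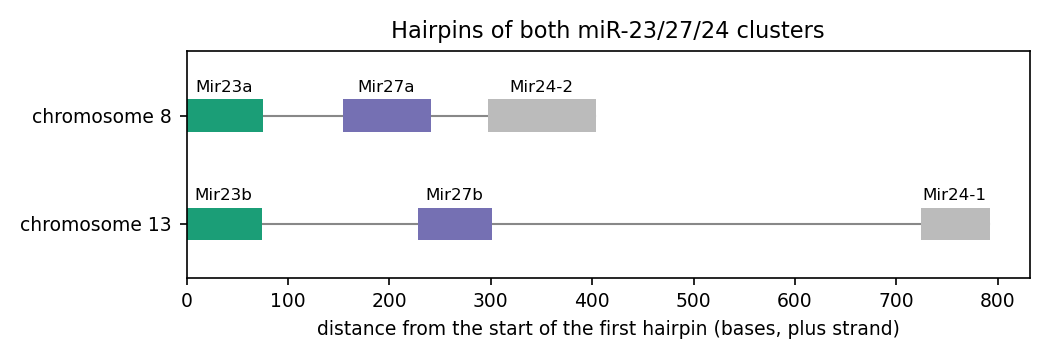
Position of the 3 hairpins of each cluster, as the distance in bases from the start of the first hairpin on the plus strand (GRCm38). Both clusters hold the hairpins in the same order, over 404 bases on chromosome 8 and 792 bases on chromosome 13.

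The mature sequences at hand (RefSeq, GRCm38.p6) are shown with the seed in capitals, since the seed sets which messenger RNAs a miRNA pairs with. miR-27a-3p and miR-27b-3p share the seed UCACAGU, which no other of 1679 mature sequences in the table carries. The seed of miR-23a-3p is UCACAUU. miR-23b-3p is named only.
miR-23a-3p (chr8:84208563-84208583, plus strand): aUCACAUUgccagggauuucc
miR-27a-3p (chr8:84208727-84208747, plus strand): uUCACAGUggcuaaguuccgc
miR-27b-3p (chr13:63300760-63300780, plus strand): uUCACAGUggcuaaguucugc

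The results turn on the miR-27 pair, which is identical at 20 of 21 bases. The only substitution is C19U, with positions counted from the 5′ end and the base of miR-27a-3p first. It is the base in capitals below.
miR-27a-3p: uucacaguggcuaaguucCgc
miR-27b-3p: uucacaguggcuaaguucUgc

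The hairpins that carry both strands are shown for context, with the mature strand in capitals.
Mir27a (chr8:84208672-84208758, plus strand): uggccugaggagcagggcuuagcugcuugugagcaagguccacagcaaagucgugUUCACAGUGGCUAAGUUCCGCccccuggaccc
Mir27b (chr13:63300712-63300784, plus strand): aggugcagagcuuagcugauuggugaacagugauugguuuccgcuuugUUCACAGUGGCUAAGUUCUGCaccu

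A read that ends before base 19 matches both miR-27 loci. How the authors assigned such reads is not given in the sources used here. A read that covers base 19 can match only 1 of the 2 mature sequences, because mapping allowed no mismatch.

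All levels below are counts, or percent of the miRNA counts of the library. Control libraries held 205185 to 330676 miRNA counts, beads-depleted libraries 1822088 to 1995956 and RNase H-depleted libraries 1199 to 2040. miR-16-5p, abundant in red blood cells, ranked first in all 3 control libraries at 13.5% to 13.7%, at rank 3 in all 3 beads-depleted libraries with 10.6% to 10.8% and at ranks 2 to 5 after RNase H with 6.37% to 11.3%. The other markers of blood cells, liver and endothelium could not be matched to identifiers. At these depths 3 counts stand for at most 0.00146% of a control library, at most 0.000165% of a beads-depleted library and 0.147% to 0.2502% of an RNase H-depleted library. PCR copies were not told apart by molecular identifiers, so the limits given cover counting error alone.

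In control serum, miR-27b-3p was by far the most abundant of the 4 miRNAs, miR-27a-3p and miR-23a-3p followed at nearly the same level, and miR-23b-3p was the rarest. miR-27b-3p had 2040, 3748 and 2672 counts in pools A, B and C, which are 0.994%, 1.13% and 1.07% of the miRNA counts and ranks 18 to 20 among the miRNAs of a library. miR-27a-3p had 242, 458 and 389 counts, or 0.118%, 0.139% and 0.156%. miR-23a-3p had 242, 415 and 337 counts, or 0.118%, 0.126% and 0.136%. In pool A the counts of these last miRNAs were equal, and their ranges over the pools overlapped, so their order in control serum was not larger than the spread. miR-23b-3p had 14, 21 and 17 counts, or 0.00682%, 0.00635% and 0.00684%, which put it at ranks 152 to 156.

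The order of the levels thus crossed between the clusters. The b member was the abundant one of the miR-27 pair, at 7.83 ± 0.839 (SD, n = 3) times the count of miR-27a-3p. The a member was the abundant one of the miR-23 pair, at 19.0 ± 1.45 (SD, n = 3) times the count of miR-23b-3p. Within the chromosome 8 cluster, miR-27a-3p had 1.09 ± 0.0786 (SD, n = 3) times the count of miR-23a-3p. Within the chromosome 13 cluster, miR-27b-3p had 160.5 ± 16.6 (SD, n = 3) times the count of miR-23b-3p. Ligation and amplification act on each sequence to a different extent, and their part in these ratios between miRNAs was not tested.

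**Figure D2:**
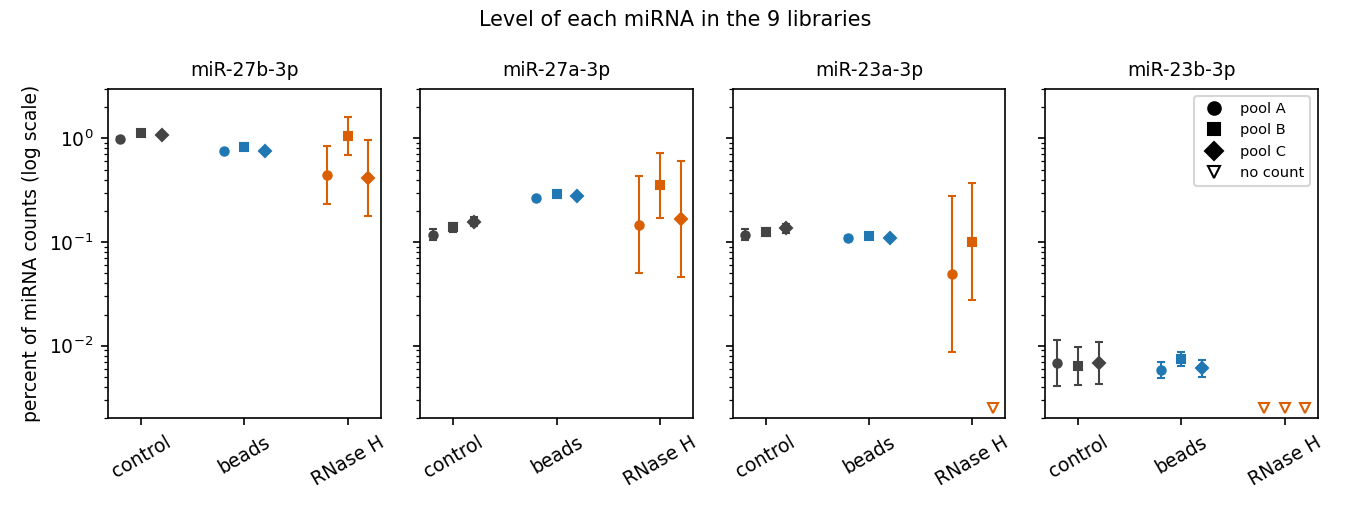
Percent of the miRNA counts (log scale) of each miRNA in the 9 libraries, by group, with 1 marker per serum pool, Wilson 95% intervals as bars and open triangles at the lower edge for libraries without a count. miR-27a-3p is higher in all 3 beads-depleted libraries (0.265% to 0.289%) than in all 3 control libraries (0.118% to 0.156%), and miR-27b-3p is lower.

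After depletion with beads, the raw counts of all 4 miRNAs were higher, as the miRNA counts of the libraries were 6.04 to 9.39 times those of the control of the same pool. Relative to all miRNAs, the paralogs miR-27a-3p and miR-27b-3p moved in opposite directions. miR-27a-3p had 5113, 5772 and 5123 counts in pools A, B and C, or 0.265%, 0.289% and 0.281% of the miRNA counts. These shares were 2.25, 2.09 and 1.798 times those of the control libraries of the same pools, and the groups did not overlap. Its rank was 39 to 43, against 52 to 60 in control libraries.

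miR-27b-3p had 14600, 16686 and 13682 counts, or 0.758%, 0.836% and 0.751% of the miRNA counts. These were 0.762, 0.738 and 0.699 times the control shares, and again the groups did not overlap. How many of all tested miRNAs had groups apart in this way was not counted. Such gaps are thus given as a description only, for these miRNAs and for their ratios below. miR-27b-3p was still the most abundant of the 4, now at ranks 20 to 22.

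The miR-23 pair moved less. miR-23a-3p had 2118, 2291 and 2003 counts, or 0.110%, 0.115% and 0.110%, each below the control share of its pool, at 0.932, 0.915 and 0.811 times. The groups were apart, but narrowly: pool B of the beads group and pool A of the control group were at 0.115% and 0.118%, and their Wilson 95% intervals (0.110% to 0.120% and 0.104% to 0.134%) overlapped. miR-23b-3p had 112, 148 and 110 counts, or 0.00581%, 0.00741% and 0.00604%, with overlapping groups and a ratio to control of 0.852, 1.17 and 0.883.

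In edgeR's quasi-likelihood fit over all 307 miRNAs tested between beads-depleted and control libraries, the log2 fold change was 1.02 ± 0.088 (SE) for miR-27a-3p, -0.44 ± 0.068 (SE) for miR-27b-3p, -0.17 ± 0.095 (SE) for miR-23a-3p and -0.04 ± 0.25 (SE) for miR-23b-3p. All 4 passed the filter on low counts. miR-27a-3p and miR-27b-3p passed the adjusted threshold of 0.05, 2 of 4, where 26.7% of all tested miRNAs passed it, 16.6% raised and 10.1% lowered. With all annotated counts as library size, all 332 miRNAs then tested passed (100%), every one raised. The miRNAs were chosen with this contrast known, so nothing is read from that number. Over all 307, the median log2 fold change was 0.04, and 5% of the values lay below -0.81 and 5% above 2.11. The fold change of miR-27a-3p was the 40th from the top and that of miR-27b-3p the 267th.

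The fold changes were also set against those of miRNAs at least as abundant as miR-27a-3p. A total of 51 tested miRNAs, miR-27a-3p included, had an average level at or above that of miR-27a-3p, a limit set after its values were seen. Of these, 3 had a log2 fold change as high as that of miR-27a-3p or higher, itself included, and 3 had a value as low as that of miR-27b-3p or lower, itself included. Each count covers 1 direction only. Raised values of 0.59, 0.52 and 0.51 also occurred among the 51, each larger in size than the fall of miR-27b-3p. DESeq2 gave 0.98 for miR-27a-3p, -0.49 for miR-27b-3p and -0.22 for miR-23a-3p, and the last then passed the threshold too, 3 of 4 where DESeq2 called 83 of 417 miRNAs, or 19.9%.

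**Figure D3:**
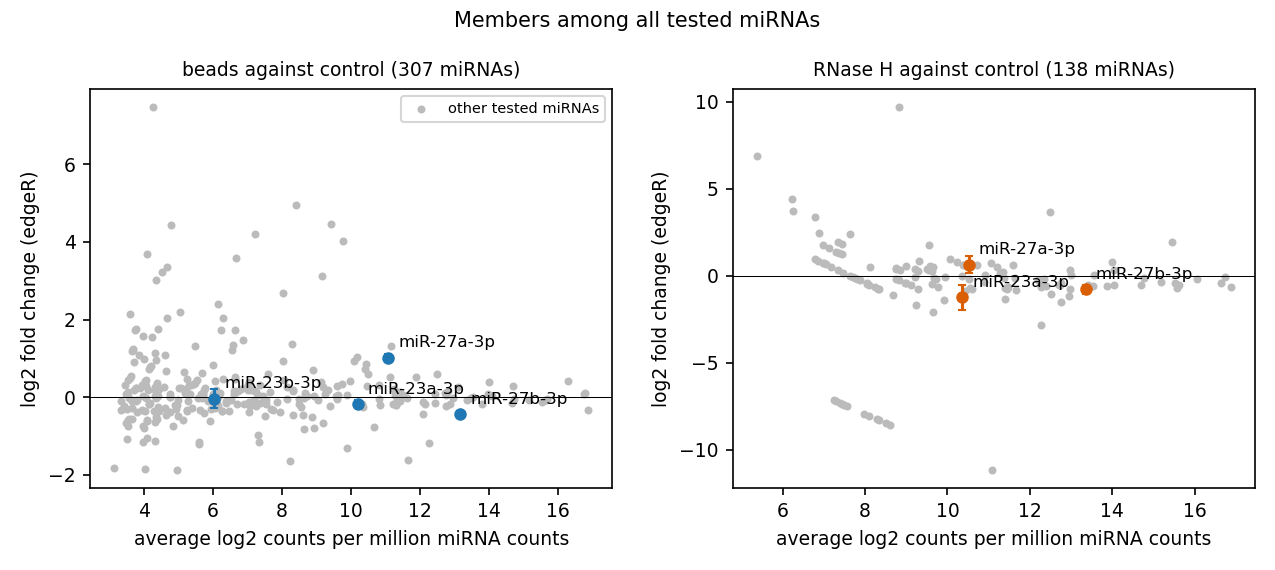
Log2 fold change from edgeR against the average log2 CPM (scaled to the miRNA counts), for all tested miRNAs (grey) and for miR-23 and miR-27 (coloured, with the standard error), in each comparison. With beads, miR-27a-3p is at 1.02 and miR-27b-3p at -0.44. With RNase H the grey points at the bottom are miRNAs without a count in RNase H-depleted libraries, and their fitted values are no measure of size.

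A ratio of 2 miRNAs within a library does not depend on how libraries are scaled against each other. miR-27a-3p made up 10.6%, 10.9% and 12.7% of the miR-27 counts in control pools A, B and C, with Wilson 95% intervals from 9.41% at the lowest to 13.9% at the highest. In beads-depleted libraries it made up 25.9%, 25.7% and 27.2%, with intervals from 25.1% to 27.9%. The mean was thus 11.4% ± 1.14 (SD, n = 3) without depletion and 26.3% ± 0.830 (SD, n = 3) with beads. The ranges and the intervals of the groups were far apart. Within a pool, the ratio of miR-27a-3p to miR-27b-3p was 2.95, 2.83 and 2.57 times as high after depletion with beads, a mean of 2.78 ± 0.194 (SD, n = 3).

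In RNase H-depleted libraries, miR-27a-3p was 3 of 12, 7 of 28 and 2 of 7 miR-27 counts, or 25.0%, 25.0% and 28.6%. The mean was 26.2% ± 2.06 (SD, n = 3), near that of the beads-depleted libraries and above every control library. The counts are few, and the Wilson 95% intervals of the single libraries, from 8.22% at the lowest to 64.1% at the highest, reach the control values. Over the 3 libraries together it was 12 of 47, or 25.5% (15.3% to 39.5%), against 11.4% in control (10.8% to 12.1%, 1089 of 9549). These 2 intervals treat the counts of a group as a single library and leave out the spread between pools. No separation of the groups is read from them. Both depleted groups were set against the same 3 control libraries, so their shifts are not separate observations.

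**Figure D4:**
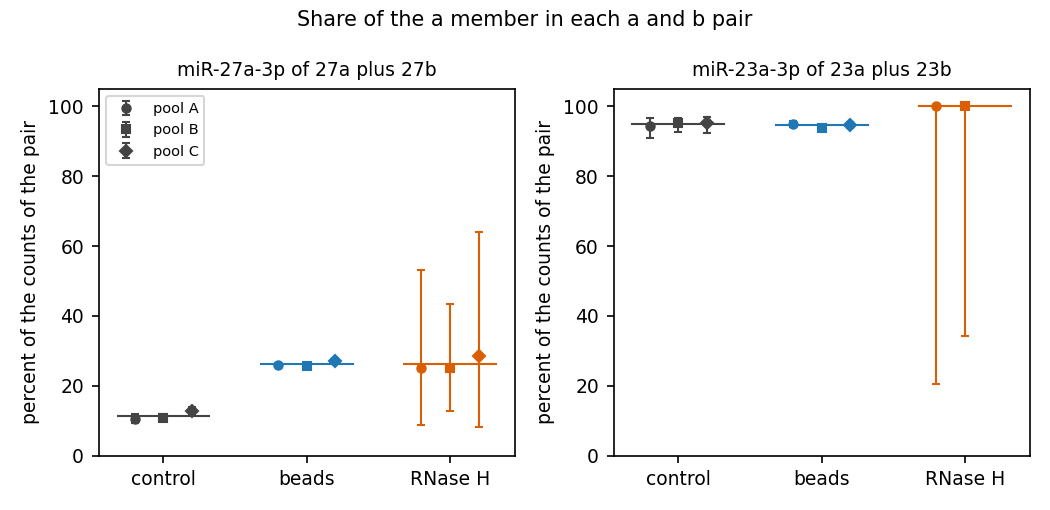
Percent of the counts of a pair that belong to the a member, for miR-27 (left) and miR-23 (right), in each library, with Wilson 95% intervals, 1 marker per serum pool and the group mean as a line. miR-27a-3p moves from 10.6% to 12.7% in control libraries to 25.7% to 27.2% with beads, while miR-23a-3p stays between 93.9% and 95.2% in both groups.

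The miR-23 pair showed a much smaller difference. miR-23a-3p made up 94.5%, 95.2% and 95.2% of the miR-23 counts in control libraries and 94.98%, 93.9% and 94.8% in beads-depleted libraries. The means were 94.97% ± 0.381 and 94.6% ± 0.558 (SD, n = 3), and the ranges overlapped. Within a pool, the ratio of miR-23a-3p to miR-23b-3p with beads was 1.09, 0.783 and 0.919 times that of the control, on both sides of no change. RNase H-depleted libraries held 3 miR-23 counts in all, every one of them miR-23a-3p, which allows a share from 43.9% to 100% and gives no comparison.

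Ratios between neighbours of a cluster changed with beads as well. The ratio of miR-27a-3p to miR-23a-3p, both from the chromosome 8 cluster, was 1.0, 1.104 and 1.15 in control libraries and 2.41, 2.52 and 2.56 in beads-depleted libraries. The groups did not overlap, and within a pool the ratio with beads was 2.30 ± 0.101 (SD, n = 3) times that of the control. The ratio of miR-27b-3p to miR-23b-3p, both from the chromosome 13 cluster, was 145.7, 178.5 and 157.2 in control libraries and 130.4, 112.7 and 124.4 with beads, lower without overlap, at 0.773 ± 0.132 (SD, n = 3) times the control within a pool. It rests on the 14 to 21 miR-23b-3p counts of the control libraries, so counting error weighs on it.

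The sum over the miR-27 pair changed less than either of its members, while that over the miR-23 pair followed miR-23a-3p, its larger part. The miR-27 pair together was 1.20% ± 0.0830 of the miRNA counts in control and 1.06% ± 0.0565 in beads-depleted libraries (SD, n = 3), and the miR-23 pair was 0.133% ± 0.00884 and 0.118% ± 0.00366. All 4 miRNAs together were 1.34% ± 0.0888 and 1.18% ± 0.0601 (SD, n = 3), with control pool A, at 1.24%, below beads-depleted pool B, at 1.25%. The miR-27 pair was 90.1% ± 0.501 of these counts in control and 90.0% ± 0.196 in beads-depleted libraries. Split by cluster, the chromosome 8 pair of miR-23a-3p and miR-27a-3p was 19.7% ± 1.35 of the counts of the 4 in control libraries, 33.1% ± 0.855 with beads and 29.8% ± 1.12 with RNase H (SD, n = 3). The RNase H value rests on 13, 30 and 7 counts of the 4 miRNAs in pools A, B and C. Pool C held no miR-23a-3p count. These are too few for the SD to show how precise the value is.

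After depletion with RNase H the 4 miRNAs together had 13, 30 and 7 counts in pools A, B and C, and most differences were not detectable at this depth. miR-27b-3p had 9, 21 and 5 counts, or 0.441%, 1.06% and 0.417% of the miRNA counts. Pool B lay within the control range of 0.994% to 1.13%, while pools A and C lay below it. miR-27a-3p had 3, 7 and 2 counts, or 0.147%, 0.354% and 0.167%, and overlapped its control range. miR-23a-3p had 1, 2 and 0 counts and miR-23b-3p had none.

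Summed over the libraries, miR-27b-3p had 35 counts where its control share would give 56.2, a ratio of 0.622 (exact 95% interval 0.433 to 0.866). miR-27a-3p had 12 where its control share would give 7.24, a ratio of 1.66 (0.854 to 2.91). miR-23a-3p had 3 where 6.61 would be given, a ratio of 0.454 (0.0935 to 1.33). The intervals treat the counts of a group as a single library and leave out the spread between pools. For miR-23b-3p the control share, 0.00663%, is below the 0.0575% that 3 counts stand for in the 3 libraries together, so its absence could not be read as a fall.

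In edgeR's fit over 138 miRNAs, the log2 fold change with RNase H was -0.79 ± 0.26 (SE) for miR-27b-3p, 0.62 ± 0.48 (SE) for miR-27a-3p and -1.25 ± 0.70 (SE) for miR-23a-3p. miR-23b-3p did not pass the filter on low counts. miR-23a-3p and miR-27a-3p, with 3 and 12 RNase H counts in all, would not have passed it without the counts of their control libraries. In this edgeR fit 0 of the 3 passed the adjusted threshold of 0.05, where 11.6% of all tested miRNAs did, 6.52% raised and 5.07% lowered, and nothing is read from this number either. At an unadjusted p under 0.05 it was 1 of the 3, miR-27b-3p, where 33 of the 138 miRNAs (23.9%) were under it. The miRNAs were chosen with these counts known, so this is no test of miR-27b-3p. With DESeq2 and its adjustment it was again 0, where 11.3% of 239 miRNAs passed. With all counts as library size 2 passed, against 35.7% of 143, and in a joint fit of all 9 libraries 1 passed, against 10.7% of 196. Over all miRNAs, edgeR called 9 raised and 7 lowered, DESeq2 21 and 6, and edgeR with all counts as library size 4 and 47. The median over the 138 was -0.19. Without pool B, which held 30 of these counts, miR-27b-3p was at -1.53 ± 0.30 (SE) and passed, as did 21.4% of the 140 miRNAs then tested, and miR-27a-3p was at -0.10 ± 0.71 (SE), with its direction turned.

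As a share of all annotated counts of a library, tRNA fragments and other small RNAs included, all 4 miRNAs were higher with beads. miR-27b-3p was 0.0645% ± 0.0140 of all counts in control and 0.473% ± 0.110 in beads-depleted libraries, and miR-27a-3p was 0.00836% ± 0.00223 and 0.168% ± 0.0335 (SD, n = 3). On this scale the log2 fold change was 2.87 for miR-27b-3p and 4.33 for miR-27a-3p, against a median of 3.36 over the miRNAs tested above, so miR-27b-3p stayed below and miR-27a-3p above the median miRNA.

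Among 69 other miRNAs with a count in every library, the profile of the summed counts of the 4 was most like those of MIMAT0000161, MIMAT0000210 and MIMAT0000160 (Pearson's r of log2 CPM of 0.98, 0.97 and 0.93 over the 9 libraries). The identifiers could not be paired with names. The 9 libraries share their group and depth, and without the RNase H-depleted libraries the values over the other 6 were 0.80, -0.66 and -0.75, so the likeness rested on the RNase H-depleted libraries for 2 of the 3.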

How the data were processed

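Small RNA libraries of mouse serum were sequenced by the authors, who cut adapters off with Cutadapt 1.8.1, dropped short or low-quality reads and aligned the rest to GRCm38 by Bowtie 1.1.2, with no mismatch allowed. Reads took their annotation from position, for miRNAs that of miRBase. The deposited values are raw counts per mature miRNA and per distinct sequence of other small RNAs, not normalized. Reads with an untemplated end or a sequencing error are lost by such mapping.

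The test was that of edgeR 4.0.16, run under R 4.3.3 (TMM, filterByExpr, quasi-likelihood test, Benjamini-Hochberg adjustment over all miRNAs tested), with the 3 depleted and 3 control libraries only and the summed miRNA counts taken as library size. Standard errors were derived from the log2 fold change and its F statistic. DESeq2 1.42.0 was an alternative. The fits were checked on simulated counts. Percentages have Wilson intervals and ratios of summed counts exact ones (SciPy 1.17.1). The members and lists were chosen with earlier results of these data known. Serum pools pair the libraries by their labels. Deviations from the group mean correlated at 0.16, 0.07 and 0.03 between beads-depleted and control libraries of pools A, B and C, and at -0.09, 0.01 and 0.06 for RNase H. No libraries of a group agreed within sampling noise (chi-square per degree of freedom of at least 1.37).

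The other strands of the hairpins, single-base pairs of other miRNAs and most of the serum markers had been planned and are not analysed here, since the tables used pair no names with miRBase identifiers. All 5 members, the strands of their clusters, the 3 miRNAs most like the summed profile and the serum markers were the miRNAs to be named.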

Additional observations from a re-analysis of the deposited data

How the results depend on the processing

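With beads, the count of members past the threshold was 2 as reported and in every alternative except DESeq2 and all counts as library size. It was 3 with DESeq2, where 83 of 417 miRNAs passed, and 4 with all counts, where all 332 tested miRNAs passed. Where it was 2, the share of all miRNAs that passed differed. This was 82 of 307 as reported, 83 of 307 without TMM factors, 75 of 875 without a filter and 63 of 196 in the joint fit. It was 91 of 307 with a replicate block, and 70 of 305, 65 of 311 and 75 of 314 without pool A, B or C. Nothing is read from the constant count of members. With all counts as library size the directions of miR-27b-3p, at 2.87, miR-23a-3p, at 3.14, and miR-23b-3p, at 3.27, were turned, which comes with the scale itself. In the other 8 alternatives miR-27a-3p was at 0.98 to 1.11, miR-27b-3p at -0.49 to -0.40 and miR-23a-3p at -0.22 to -0.12, while miR-23b-3p was on both sides of 0, from -0.19 to 0.06. With a replicate block for pool (a paired fit), 91 miRNAs passed with beads against 82 and 12 with RNase H against 16, and no call of the 4 miRNAs changed.

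With RNase H, 16 miRNAs passed, against 27 with DESeq2 and 51 with all counts as library size, and 4 to 30 when 1 pool was left out (8 without A, 30 without B and 4 without C). The members past the threshold were 0 as reported, 2 with all counts as library size, 1 in the joint fit of 9 libraries (miR-27b-3p, where 21 of 196 miRNAs passed) and 0 to 1 with a pool left out. The causes were not tested. Over the 138 miRNAs of the main fit, the median log2 fold change moved from -0.19 to 0.04 with DESeq2. With all counts it moved to -1.71, and miR-27a-3p was then at -0.90. Over all 574 miRNAs that DESeq2 fitted, its median was 3.83. As a share of all counts, the 4 miRNAs together were 0.0809% (control), 0.712% (beads) and 0.0268% (RNase H), and without the 10 most abundant other miRNAs in the denominator 4.11%, 3.53% and 2.19%. When counts were summed or a pool was left out, the miR-27a-3p share was 10.7% to 11.8% in control and 25.8% to 26.6% with beads. The miR-23a-3p share was 94.9% to 95.2% and 94.4% to 94.9%. With RNase H the miR-27a-3p share was 25.0% to 26.8%, and that of miR-23a-3p rests on 3 counts. With 3 libraries, leaving 1 out always moves a mean by less than 1 SD, so this is no test of the shares. Depth limits every RNase H value, since 3 counts are 0.147% to 0.2502% of a library. The alternatives planned for the other strands of the hairpins were not run, as these are not analysed here.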
